A study of Homo sapiens with 6 samples.

Results

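The genes described here are the protein-coding genes of the cyclic AMP (cAMP) pathway whose symbols place them among the adenylyl cyclases (ADCY), the phosphodiesterase genes (PDE), the catalytic and regulatory subunits of protein kinase A (PRKAC and PRKAR) and the A-kinase anchoring proteins (AKAP) named by number. The rule used symbols and no measured value, although it was set with earlier results of these data known, and 38 of the 18118 genes counted met it, namely 7 ADCY, 14 PDE, 2 PRKAC, 4 PRKAR and 11 AKAP genes. The data are 6 RNA-seq libraries of SU-CCS-1, a long-used line of clear cell sarcoma cells in which EWSR1 is fused to ATF1 (EWSR1::ATF1, or EA1). The cells received for 48 h 5 pmol of a scramble control siRNA (siNeg1) or of an siRNA against EA1, and the labels list 2 such siRNAs, siEA1-1 and siEA1-2, whereas the study's methods name 1; each of the 3 conditions has 2 libraries. No other treatment, clone or age is given for the cells, and nothing says that the replicates are separate cultures, so p-values measure only the spread between these samples.

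cAMP is made from ATP by the adenylyl cyclases when Gs-coupled receptors activate them, and it is broken down by the phosphodiesterases. It acts mainly through protein kinase A (PKA), in which regulatory subunits hold catalytic subunits inactive until cAMP binds, and the anchoring proteins place PKA at membranes and organelles. PKA phosphorylates the CREB family of transcription factors, to which ATF1 belongs, and these bind the cAMP response element TGACGTCA. EA1 keeps the DNA-binding part of ATF1, so the question here is how the genes of this pathway were expressed after siRNA against EA1.

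The libraries held 5942808 to 7599305 counts, and 3 counts, taken as the smallest level that can be told from 0, were 0.386 to 0.534 CPM (counts scaled to a fixed library total) for counting error alone. ATF1 checks the labels: its CPM were 82.2 and 87.4 in siNeg1, 21.2 and 20.3 with siEA1-1, and 21.7 and 22.3 with siEA1-2. Its log2 fold changes were -2.03 and -1.94, with edgeR adjusted p of 6.70e-07 and 1.05e-06, while EWSR1 had log2 fold changes of -0.11 and -0.04 with adjusted p of 0.45 and 0.789. Reads on either gene come from the fusion and from the unrearranged gene alike, so less fusion and less unrearranged ATF1 cannot be told apart here. In what follows, knockdown means treatment with an EA1 siRNA. Of 8 melanocytic markers of clear cell sarcoma, 7 were above 3 counts in every library, and the remaining one, MLANA, had 4 and 0 counts in siNeg1. The summed level of these markers was 2978 to 3175 CPM in siNeg1 and 7664 to 12201 CPM in the knockdown libraries, and its part in the results below was not tested. PMEL was the largest part of it, with 1397 and 1043 CPM in siNeg1 and 4241 to 7768 CPM after knockdown. In edgeR, PMEL, DCT, MITF, MLANA, S100B and TYR rose with each EA1 siRNA at an adjusted p under 0.05. ERBB3 did so with siEA1-1 only, and SOX10 with neither (log2 fold changes 0.09 and 0.23). None of 5 skeletal muscle markers had a row in the counts, and the other 4 marker lists (fibroblast, immune, endothelial, epithelial) summed to at most 23 CPM in any library; the fibroblast list, with 2 of 5 genes counted, had 2.7 to 3.44 CPM in siNeg1 and 8.89 to 23 CPM after knockdown.

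All log2 fold changes (log2FC) are knockdown minus siNeg1, so a negative value means a lower level after knockdown, and a gene was called when its adjusted p was under 0.05 over 14571 genes tested. Among the members, 36 passed the filter on low counts. With siEA1-1, 13 members were called lower and 8 higher, against 20.3% and 19.9% of all genes. With siEA1-2, 12 were lower and 8 higher, against 18.2% and 18.5%. The average of both gave 14 lower and 7 higher, against 22.1% and 21.5%. With each EA1 siRNA in the same direction, 11 members fell, against 15.1% of all genes, and 7 rose, against 14.8%; both contrasts share the siNeg1 libraries. PDE11A, which passed the filter through the knockdown libraries alone, is among those that rose, and without it the members called higher were 7 with siEA1-1, 7 with siEA1-2, 6 in the average and 6 with each siRNA. The numbers called higher depended on single libraries: with siEA1-1 they were 3 without siNeg1 replicate 1 and 4 without siNeg1 replicate 2 or either siEA1-1 library, and with siEA1-2 they were 3 and 4 without siNeg1 replicates 1 and 2 and 5 without siEA1-2 replicate 1. In each of these fits the number of all genes called higher fell too, but by a smaller share. With DESeq2, 2 members were called higher with each siRNA, beside 1649 of all genes. The median log2FC of the 36 members was -0.19 with siEA1-1 and -0.09 with siEA1-2, beside 0.02 and 0.00 for all genes. These are totals of RNA in bulk cultures, in which fewer cells of a kind and less RNA per cell cannot be told apart.

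**Figure D1:**
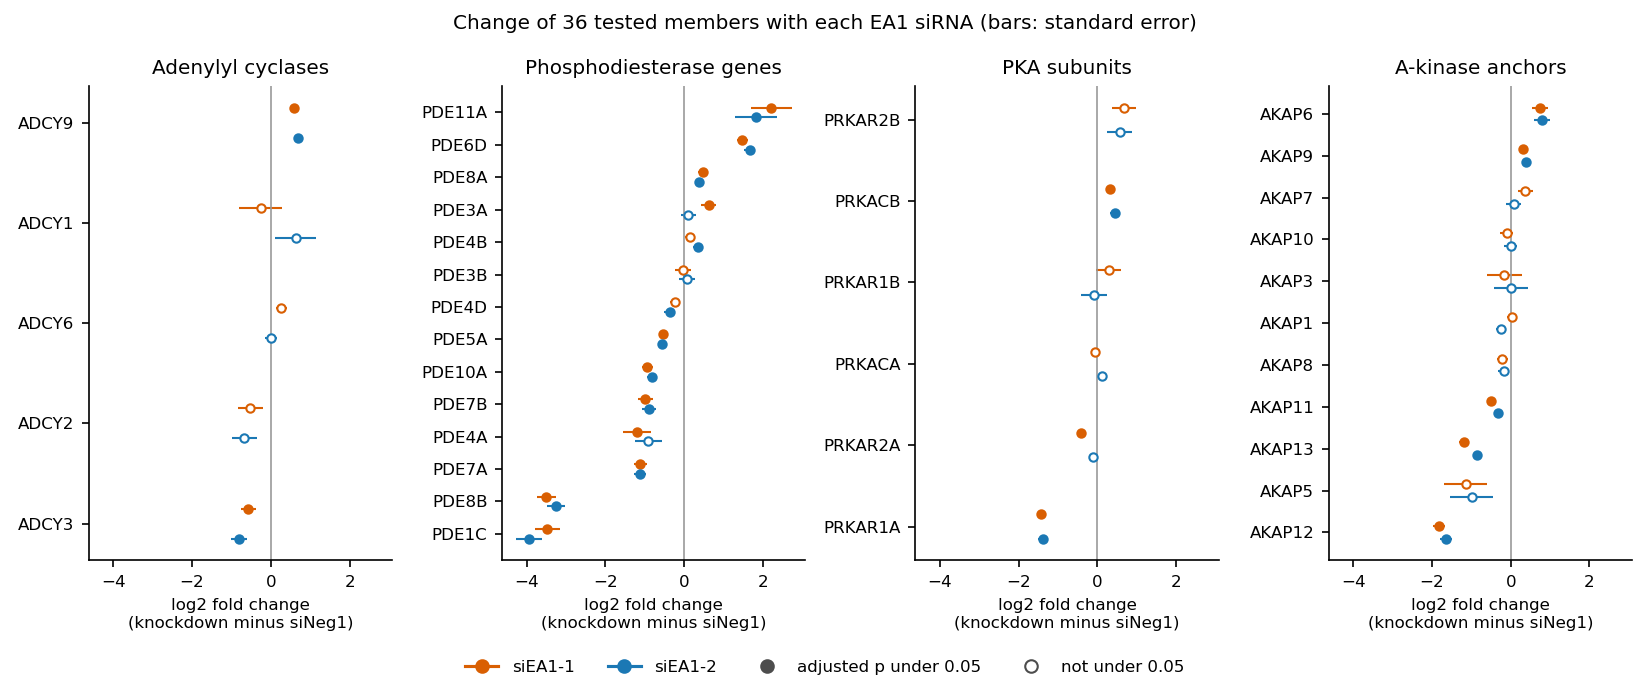
The plot of log2FC shows each of the 36 tested members with siEA1-1 and siEA1-2 (knockdown minus siNeg1, bars are the standard error, filled points have an adjusted p under 0.05). PDE1C and PDE8B lie lowest, at -3.25 to -3.94, and PDE11A and PDE6D lie highest, at 1.48 to 2.21.

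Among the PKA subunits, the regulatory subunit PRKAR1A was the member with the highest level and fell strongly, PRKAR2A passed the test with siEA1-1 only, and the catalytic subunit PRKACB rose slightly. PRKAR1A encodes the type I alpha regulatory subunit, whose loss in the germ line causes Carney complex, and lies on chromosome 17 from 68511780 to 68551319 (hg38, plus strand). Its CPM were 3091 and 3253 in siNeg1, 1172 and 1205 with siEA1-1, and 1163 and 1263 with siEA1-2. The siNeg1 libraries were thus far above all knockdown libraries, which differed little among themselves. PRKAR1A fell to 0.375 and 0.382 of its siNeg1 level, a log2FC of -1.42 (SE 0.11) and -1.39 (SE 0.11) with edgeR adjusted p of 2.94e-06 and 4.40e-06.

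PRKACB, the beta catalytic subunit, had CPM of 51.2 and 45.9 in siNeg1, 56.9 and 65.5 with siEA1-1, and 64.4 and 68.2 with siEA1-2. All knockdown values lay above both siNeg1 values, by a small distance. Its log2FC were 0.33 (SE 0.12, edgeR adjusted p 0.0478) and 0.45 (SE 0.12, adjusted p 0.0127). The siEA1-1 call was lost on leaving out any siNeg1 or siEA1-1 library (adjusted p 0.0579 to 0.366) and with RLE size factors, no filter or DESeq2, and the siEA1-2 call was lost without siNeg1 replicate 2 or siEA1-2 replicate 2 (0.0583 to 0.146) and with DESeq2. PRKACA, the alpha catalytic subunit, lay between 71.4 and 84.9 CPM in all 6 libraries, with log2FC of -0.06 and 0.12 that did not pass the test. PRKAR2A, the type II alpha regulatory subunit, had CPM of 144 and 151 in siNeg1, 113 and 109 with siEA1-1, and 125 and 148 with siEA1-2. It fell with siEA1-1 (log2FC -0.41, adjusted p 0.0101), a call lost without siNeg1 replicate 2 or either siEA1-1 library (0.0523 to 0.0657), while the siEA1-2 value was -0.11 (adjusted p 0.478). PRKAR1B and PRKAR2B, the beta regulatory subunits, had 25 to 53 counts per library and did not pass the test, and 7.7% of the exon bases of PRKAR1B overlap DNAAF5 on the opposite strand.

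To compare genes with each other, CPM were divided by the length of the canonical transcript in kilobases. On this scale PRKAR1A had a mean level of 746 in siNeg1, which was 96.6% of the summed regulatory subunits in each siNeg1 library, and 279 and 285 with the EA1 siRNAs, 91.8% to 93% of the sum. The summed level of the 4 regulatory subunits was 752 and 792 in siNeg1 and 297 to 324 in the knockdown libraries, whereas that of both catalytic subunits was 38.9 and 38.1 against 39.2 to 45.9. The ratio of regulatory to catalytic transcript was therefore 19.3 and 20.8 in siNeg1, 7.6 and 7.39 with siEA1-1, and 6.47 and 7.37 with siEA1-2. Without PRKAR1A the ratio was 0.655 and 0.702 in siNeg1 and 0.509 to 0.605 in the knockdown libraries. No p-value is given for these sums, which describe transcripts and not the amounts of subunit protein.

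**Figure D2:**
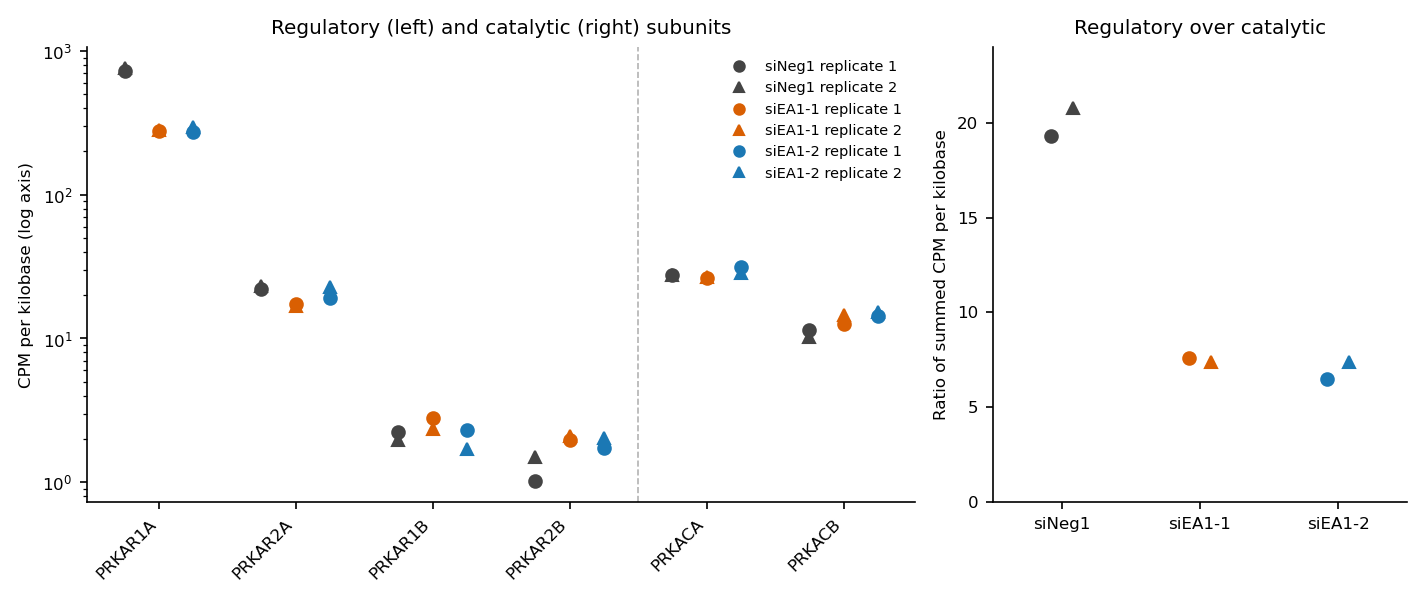
The left panel plots the level of each PKA subunit in each library (CPM per kilobase, log axis), and the right panel plots the summed regulatory over the summed catalytic level. PRKAR1A lies far above the other subunits in all 6 libraries, and the ratio is 19.3 and 20.8 in siNeg1 and 6.47 to 7.6 in the 4 knockdown libraries.

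Among the 11 anchoring proteins, AKAP12, AKAP13 and AKAP11 fell with each EA1 siRNA, AKAP6 and AKAP9 rose, and 6 passed with neither. AKAP12, also called gravin, is a plasma membrane scaffold for PKA and protein kinase C, and is encoded on chromosome 6 from 151239967 to 151358559 (plus strand). Its CPM were 1445 and 1410 in siNeg1, 349 and 458 with siEA1-1, and 395 and 514 with siEA1-2. Replicate 1 was lower than replicate 2 with both EA1 siRNAs, but the distance to siNeg1 was far larger than this spread. AKAP12 fell to 0.283 and 0.319 of its siNeg1 level (log2FC -1.82, SE 0.16, and -1.65, SE 0.15, with edgeR adjusted p of 4.78e-06 and 1.17e-05).

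AKAP13, an anchor that is also a guanine nucleotide exchange factor for RhoA, had CPM of 344 and 331 in siNeg1, 159 and 137 with siEA1-1, and 193 and 180 with siEA1-2. Its log2FC were -1.19 (SE 0.11) and -0.85 (SE 0.11), with adjusted p of 6.95e-06 and 8.48e-05, and the libraries of siEA1-1 were the lowest. AKAP11, which binds PKA together with glycogen synthase kinase and protein phosphatases, had CPM of 94.4 and 106 in siNeg1, 71.5 and 71 with siEA1-1, and 83 and 79.3 with siEA1-2. The log2FC of AKAP11 were -0.49 (adjusted p 0.00303) and -0.31 (adjusted p 0.0389). Its siEA1-2 call was lost on leaving out any library except siEA1-2 replicate 1 (adjusted p up to 0.202), with DESeq2 (0.121) and in a fit of only the libraries compared (0.0658).

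AKAP6, the anchor of the nuclear envelope in muscle cells, had CPM of 10.6 and 11.3 in siNeg1, 19.2 and 17.5 with siEA1-1, and 22.3 and 16.1 with siEA1-2. All knockdown libraries were above siNeg1, and the log2FC were 0.74 (adjusted p 0.016) and 0.80 (adjusted p 0.0121). AKAP9, a large scaffold of the Golgi and the centrosome, had CPM of 136 and 155 in siNeg1, 177 and 184 with siEA1-1, and 186 and 192 with siEA1-2, with log2FC of 0.31 (adjusted p 0.0304) and 0.38 (adjusted p 0.0133). The siEA1-1 calls of both genes were lost on leaving out any siNeg1 or siEA1-1 library (adjusted p 0.0507 to 0.0997 for AKAP6 and 0.0593 to 0.245 for AKAP9), and the siEA1-2 calls without either siNeg1 library or siEA1-2 replicate 1 for AKAP6 (0.0536 to 0.113) and without siNeg1 replicate 1 for AKAP9 (0.14). DESeq2 did not call either gene with siEA1-1 (0.0611 for AKAP6 and 0.0798 for AKAP9).

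The remaining anchors did not pass the test with either siRNA. They are AKAP1 of the outer mitochondrial membrane (117 to 166 CPM), the nuclear anchor AKAP8 (30.6 to 38.8), the dual-specificity anchor AKAP10 (19.3 to 24), the membrane anchor AKAP7 (13 to 17.6), the sperm anchor AKAP3 (2.31 to 2.95) and AKAP5 (0.983 to 2.84), a membrane anchor best known from neurons. AKAP5 had the largest uncalled values of these, -1.14 (SE 0.55) and -0.99 (SE 0.55), from 19 and 15 counts in siNeg1 and 6 to 8 counts in the knockdown libraries. It passed the filter on low counts through siNeg1 alone, where it is high. Per kilobase, the summed level of the anchors was 273 and 276 in siNeg1 and 129 to 150 in the knockdown libraries, and AKAP12 made up 62.4% and 60.4% of it in siNeg1 and 31.8% to 40.8% after knockdown. Without AKAP12 the sum was 103 and 109 in siNeg1 and 88.3 to 96.2 after knockdown.

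The phosphodiesterase genes held the largest changes among the members. Those called with each siRNA were 6 that fell, PDE1C, PDE8B, PDE7A, PDE7B, PDE10A and PDE5A, and 3 that rose, PDE6D, PDE8A and PDE11A, the last of which was too low in siNeg1 to pass the filter there. PDE1C encodes a calcium- and calmodulin-stimulated enzyme that hydrolyses cAMP and cGMP, and lies on chromosome 7 from 31751179 to 32428131 (minus strand). Its CPM were 44.3 and 56.7 in siNeg1, 2.56 and 6.75 with siEA1-1, and 2.85 and 3.65 with siEA1-2. The siEA1-1 replicates differed more from each other than those of siEA1-2, and all knockdown values were far below siNeg1. PDE1C fell to 0.0903 and 0.0653 of its siNeg1 level (log2FC -3.47, SE 0.31, and -3.94, SE 0.33, with edgeR adjusted p of 7.09e-06 and 5.44e-06).

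PDE8B, a high-affinity enzyme specific for cAMP, lies on chromosome 5 from 77210449 to 77428256 (plus strand). It had CPM of 40 and 41.9 in siNeg1, 3.41 and 3.79 with siEA1-1, and 5.34 and 3.37 with siEA1-2. Its log2FC were -3.50 (SE 0.24) and -3.25 (SE 0.23), with adjusted p of 9.97e-07 and 1.70e-06. Of its exon bases, 51.6% are shared with ENSG00000284762 on the same strand, which is not among the genes used here, and 6.8% overlap WDR41 on the opposite strand. Its paralog PDE8A, also specific for cAMP, had CPM of 56.7 and 67.9 in siNeg1, 87.9 and 85.5 with siEA1-1, and 80.8 and 82.5 with siEA1-2, and rose by a log2FC of 0.47 (adjusted p 0.00623) and 0.39 (adjusted p 0.0205). The PDE8A calls were lost without siNeg1 replicate 1 (0.0826 and 0.188) and, with siEA1-2, without siEA1-2 replicate 2 (0.066) or with DESeq2 (0.0715). Per kilobase, PDE8B was 38.2% and 35.1% of the PDE8 transcript in siNeg1 and 3.29% to 5.47% in the knockdown libraries, while the PDE8 sum was 22.7 and 25.9 against 21.2 to 22.5.

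The other cAMP-specific phosphodiesterases that fell with each siRNA were both PDE7 genes. PDE7A had CPM of 74.4 and 75.3 in siNeg1, 34.3 and 35.1 with siEA1-1, and 27.8 and 40.6 with siEA1-2, a log2FC of -1.11 (SE 0.16, adjusted p 1.83e-04) and -1.12 (SE 0.16, adjusted p 2.20e-04). PDE7B had CPM of 30.2 and 39.5 in siNeg1, 19.2 and 16.1 with siEA1-1, and 18.5 and 18.8 with siEA1-2, a log2FC of -0.98 (SE 0.18, adjusted p 0.00128) and -0.90 (SE 0.18, adjusted p 0.00245). The summed PDE7 level per kilobase was 16.3 and 18.2 in siNeg1 and 7.43 to 9.32 after knockdown, and PDE7B made up 34.4% to 46.3% of it in all 6 libraries.

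PDE10A, an enzyme for both cyclic nucleotides that is abundant in the striatum, had CPM of 284 and 344 in siNeg1, 174 and 156 with siEA1-1, and 163 and 192 with siEA1-2. Its log2FC were -0.93 and -0.82 (SE 0.13 for each, adjusted p 1.32e-04 and 3.67e-04). PDE5A, the cGMP-specific enzyme inhibited by sildenafil, had CPM of 138 and 139 in siNeg1, 91 and 99.8 with siEA1-1, and 93.1 and 94.1 with siEA1-2. The replicates of PDE5A lay close together, and its log2FC were -0.54 (SE 0.10, adjusted p 0.00115) and -0.57 (SE 0.10, adjusted p 9.87e-04).

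PDE6D is named for a photoreceptor phosphodiesterase subunit but encodes a chaperone that binds prenylated proteins and has no enzyme activity of its own. It lies on chromosome 2 from 231732433 to 231786272 (minus strand). Its CPM were 23.8 and 23.3 in siNeg1, 70.1 and 61.4 with siEA1-1, and 83.1 and 66.8 with siEA1-2. PDE6D rose 2.80-fold and 3.18-fold (log2FC 1.48, SE 0.14, and 1.67, SE 0.14, with adjusted p of 1.14e-05 and 6.37e-06), and 2.5% of its exon bases overlap COPS7B on the opposite strand. PDE11A, an enzyme for both cyclic nucleotides, was scarce, with 6 and 7 counts in siNeg1, 38 and 18 with siEA1-1, and 19 and 22 with siEA1-2. It passed the filter on low counts through the knockdown libraries alone, where it is high, and would not have been tested at its siNeg1 level. Its log2FC were 2.21 (SE 0.52, adjusted p 0.00522) and 1.82 (SE 0.53, adjusted p 0.0189). The siEA1-1 call of PDE11A was lost without siEA1-1 replicate 1 (log2FC 1.70, adjusted p 0.0907), and the siEA1-2 call without either siNeg1 library or siEA1-2 replicate 1 (0.0611 to 0.0901) and with DESeq2 (0.0556).

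The 3 PDE4 genes, which encode cAMP-specific enzymes inhibited by rolipram, and PDE3A, an enzyme inhibited by cGMP, each passed the test with 1 siRNA only, apart from the alternatives given below. PDE4D had the highest level of the PDE genes in siNeg1, with CPM of 354 and 418, against 306 and 346 with siEA1-1 and 268 and 328 with siEA1-2. Its log2FC were -0.24 (adjusted p 0.152, or 0.0444 with the replicate block) and -0.37 (adjusted p 0.0392). PDE4A had CPM of 9.43 and 10.2 in siNeg1, 4.27 and 4.28 with siEA1-1, and 7.12 and 3.51 with siEA1-2, with log2FC of -1.19 (adjusted p 0.0173) and -0.91 (adjusted p 0.0579, or 0.0319 with the block). The siEA1-2 value of PDE4A also passed with at least 10 counts in every library (edgeR adjusted p 0.0457), and was -1.50 without siEA1-2 replicate 1. PDE4B rose with siEA1-2 (log2FC 0.36, adjusted p 0.0446) and had 0.15 (adjusted p 0.369) with siEA1-1, and PDE3A rose with siEA1-1 (0.62, adjusted p 0.0201) and had 0.11 (adjusted p 0.687) with siEA1-2. None of these 4 genes was called between the EA1 siRNAs (adjusted p 0.195 to 0.766), and each call was lost on leaving out at least 3 of the libraries in turn, siNeg1 replicate 2 among them in all 4 (adjusted p 0.0542 to 0.288). The PDE4B call was also lost with DESeq2 (0.106) and RLE size factors (0.0523), that of PDE3A with DESeq2 (0.0947) and that of PDE4D with only the libraries compared (0.057). PDE3B, the related enzyme of adipocytes and liver, lay between 16 and 21.5 CPM and did not pass the test.

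Per kilobase, the sum of the 14 PDE genes was 191 and 212 in siNeg1 and 189 to 200 in the knockdown libraries, but its make-up differed. PDE6D was 10.9% and 9.65% of it in siNeg1 and 28.5% to 36.5% after knockdown. Leaving out PDE6D and the cGMP-specific PDE5A, the 12 genes whose enzymes hydrolyse cAMP summed to 150 and 171 in siNeg1 and 114 to 122 in the knockdown libraries. PDE4D, with a mean of 47.3 in siNeg1 and 40 and 36.5 with the EA1 siRNAs, was the highest of these 12 in all 3 conditions.

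**Figure D3:**
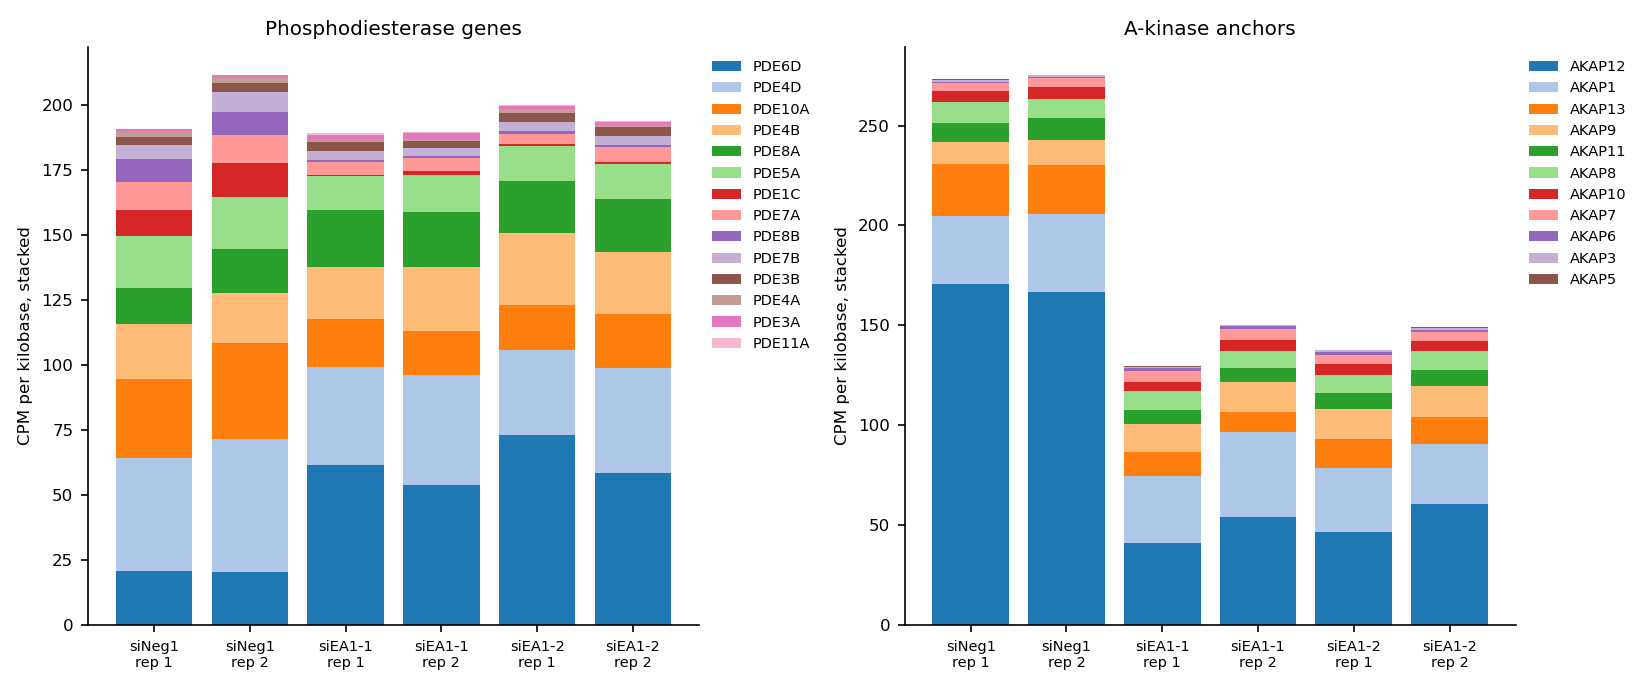
The stacked bars give the level of each PDE gene (left) and each anchor (right) in each library in CPM per kilobase. The PDE bars are of similar height, 189 to 212, with more PDE6D in the knockdown libraries, and the anchor bars reach 273 and 276 in siNeg1 and 129 to 150 after knockdown, with the widest difference in the AKAP12 segment.

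Of the 7 adenylyl cyclases, ADCY3 fell and ADCY9 rose with each EA1 siRNA. ADCY9, which had the highest level of the cyclases and responds little to forskolin, had CPM of 113 and 116 in siNeg1, 170 and 175 with siEA1-1, and 174 and 195 with siEA1-2. Every knockdown library was above siNeg1, the siRNAs overlapped each other, and the log2FC were 0.59 (SE 0.10, adjusted p 7.09e-04) and 0.69 (SE 0.10, adjusted p 2.84e-04). ADCY3, known from olfactory neurons and primary cilia, had CPM of 28.1 and 24.7 in siNeg1, 15.9 and 19.6 with siEA1-1, and 13.2 and 17 with siEA1-2. Its log2FC were -0.57 (SE 0.19, adjusted p 0.0332) and -0.80 (SE 0.20, adjusted p 0.00766). Both calls were lost without siNeg1 replicate 1 (-0.48, adjusted p 0.165, and -0.70, adjusted p 0.0558), the siEA1-1 call also without siEA1-1 replicate 1 (0.23) and with DESeq2 (0.0907), and 23.0% of the exon bases of ADCY3 overlap CENPO on the opposite strand.

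ADCY6, a cyclase inhibited by calcium, lay between 55.3 and 78.1 CPM with log2FC of 0.27 and 0.00 that did not pass the test. ADCY2 had CPM of 19 and 26.5 in siNeg1, 14.6 and 17.1 with siEA1-1, and 8.54 and 19.7 with siEA1-2. Its log2FC were -0.52 and -0.67 (adjusted p 0.198 and 0.115), and with the replicate block the siEA1-2 value passed (adjusted p 0.0172), as did the average of both (0.085 without the block, 0.0132 with it). Without siEA1-2 replicate 2 the siEA1-2 value of ADCY2 was -1.45 (adjusted p 0.000602), and without replicate 1 it was -0.24 and not called. Its siEA1-1 value passed with only the libraries compared (0.0394) and without either siEA1-2 library (0.0313 and 0.0359). ADCY1, the calmodulin-stimulated cyclase of neurons, had 142 and 77 counts in siNeg1, 123 and 48 with siEA1-1, and 214 and 76 with siEA1-2, so that replicate 1 was higher than replicate 2 in every condition. Its log2FC of -0.26 and 0.63 did not pass the test (adjusted p 0.735 and 0.376), but with the block the siEA1-2 value was 0.54 with an adjusted p of 0.0489. Without the block, the sign depended on single libraries. The siEA1-2 value of ADCY1 was -0.55 without siEA1-2 replicate 1 and 1.27 without siEA1-2 replicate 2. Its siEA1-1 value turned to 0.37 without siNeg1 replicate 1 and to 0.16 without siEA1-1 replicate 2. ADCY7 had 2 to 7 counts per library, and 41.8% of its exon bases overlap BRD7 on the opposite strand. ADCY8 had 6 and 1 counts in siNeg1 and 0 in all 4 knockdown libraries, which allows a level of up to 0.421 to 0.534 CPM there, and neither gene was tested. The summed level of the cyclases per kilobase was 36.6 and 33.5 in siNeg1 and 40.4 to 42 after knockdown.

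**Figure D4:**
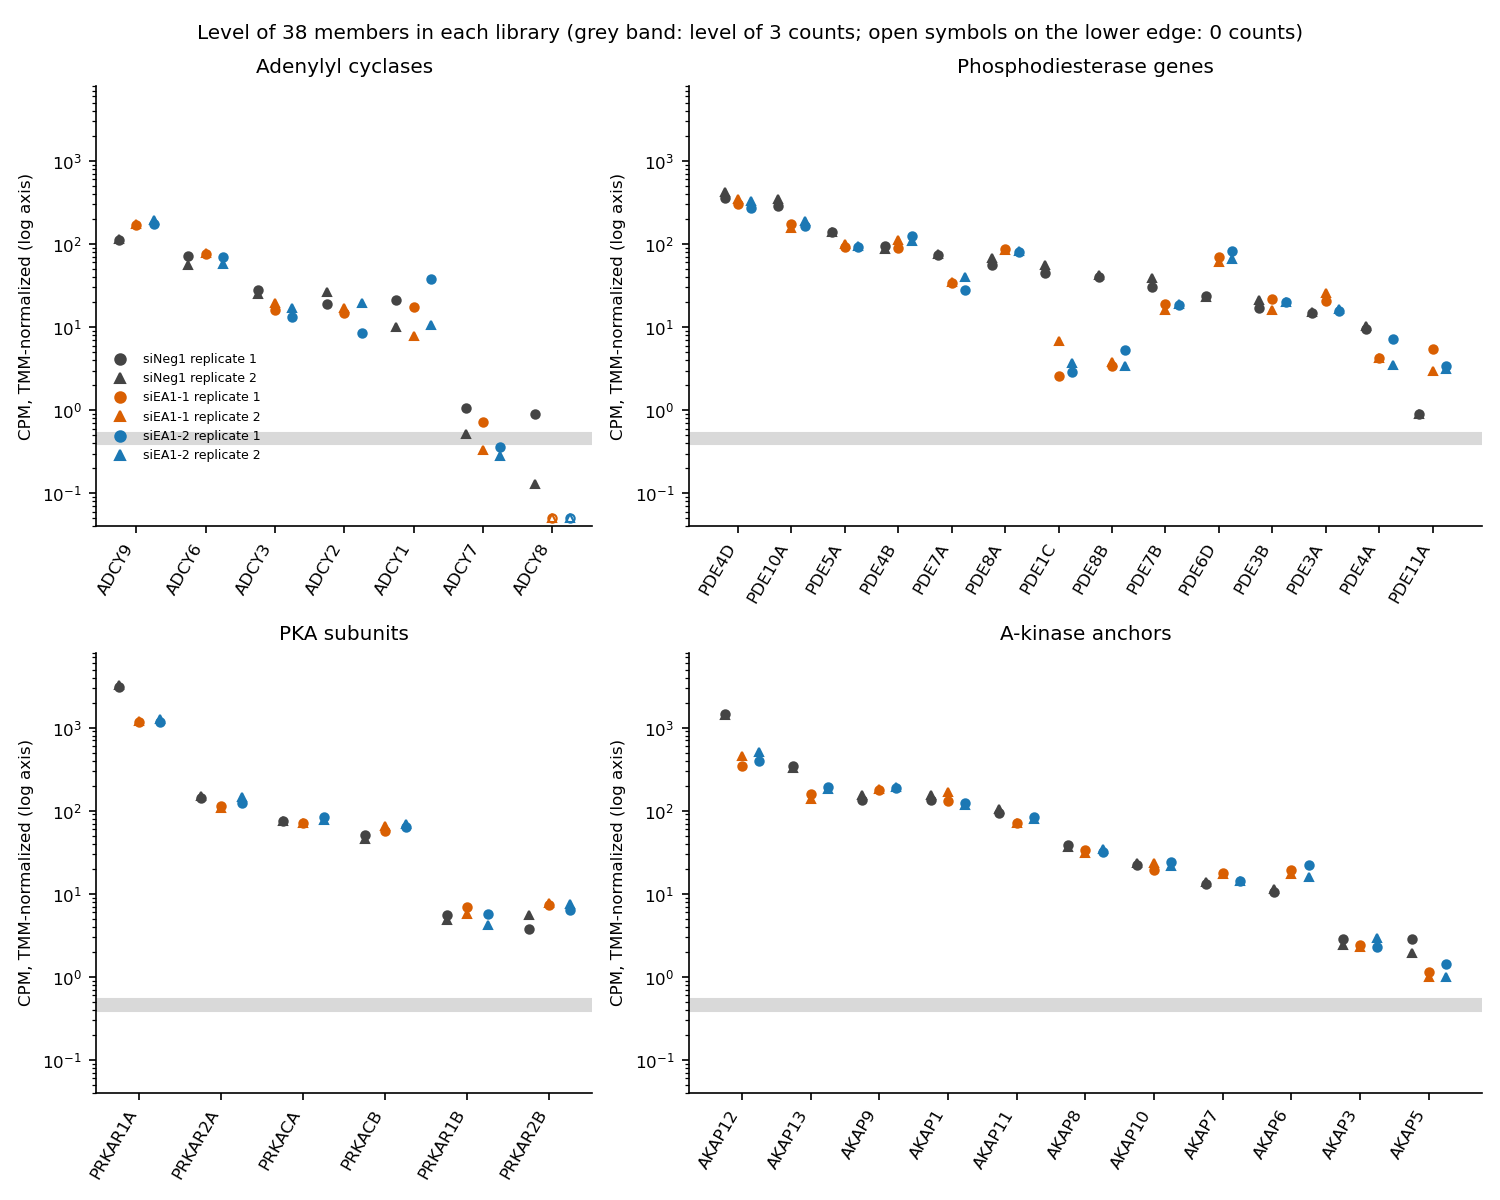
The dot plot gives the CPM of each of the 38 members in each library on a log axis, ordered within a family by the mean in siNeg1, with the level of 3 counts as a grey band. PRKAR1A and AKAP12 stand highest, PDE1C, PDE8B and PDE11A show the widest gap between siNeg1 and knockdown libraries, and ADCY7 and ADCY8 lie at or near the band.

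Ordered by CPM per kilobase, PRKAR1A was first of the 38 members in all 3 conditions. PDE6D was 9th in siNeg1, at 20.6, and 2nd with each EA1 siRNA, at 57.7 and 65.8, above AKAP12 at 47.7 and 53.7. AKAP13 went from 7th to 16th and 14th, PDE1C from 15th to 30th and 34th, and PDE8B from 21st to 33rd and 32nd. The libraries of PDE6D and AKAP12 overlapped in these conditions, so their order there is within the spread of the libraries. The order also depends on the length used. PDE6D has 1140 bases in its canonical transcript and 2824 in all annotated exons, against 8466 and 8775 for AKAP12. With the length of all annotated exons, PDE6D would lie below AKAP12 in all 3 conditions.

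The difference between the EA1 siRNAs was tested directly. No member was called in siEA1-1 minus siEA1-2 by edgeR, against 2.24% of all genes (210 lower and 116 higher, but 20 and 13 without siEA1-1 replicate 2 and 471 and 317 without siEA1-2 replicate 2), and DESeq2 called 0 as well. At an unadjusted p under 0.05 there were 4 in edgeR, AKAP13, PRKAR2A, PDE3A and AKAP1, and 2 in DESeq2, against 17% of all genes in edgeR and 8.79% of the 18118 genes in DESeq2. With the replicate block ADCY1 was called, with a log2FC of -0.86 and an adjusted p of 0.0313, against -0.90 and 0.44 without it. Leaving out siEA1-2 replicate 2 called ADCY1 too (-1.55, adjusted p 0.0173), whereas leaving out siEA1-2 replicate 1 turned its sign (0.26, not called) and called PRKAR2A (-0.42, adjusted p 0.0496). For PDE1C and PDE8B, the members with the largest changes, the differences were 0.47 (SE 0.42) and -0.25 (SE 0.30). Both turned sign on leaving out 1 library. PDE1C was at -0.35 without siEA1-1 replicate 2, and PDE8B at 0.09 without siEA1-2 replicate 1.

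Genes of the pathway with other names were taken from 6 lists, whose counts called with each siRNA stand beside 15.1% lower and 14.8% higher of all genes tested. With the replicate block, 2460 of all genes were called lower and 2405 higher with each siRNA, against 2201 and 2157 without it. Of 34 Gs-coupled receptors, 11 had a row in the counts and 7 passed the filter, and 4 fell with each EA1 siRNA, none rising. Among them were the adenosine receptor ADORA2B (-3.32 and -4.13) and the orphan receptors GPR12 (-2.40 and -2.36) and GPR3 (-2.59 and -1.74). GPR3 had 12 and 23 counts in siNeg1 and 2 to 6 in the knockdown libraries, so it passed the filter on low counts through siNeg1 alone, where it is high. The 4 that fell include it, so their number is not read against the share of all genes. With the replicate block, the melanocortin receptor MC1R was lower with each siRNA too (-1.89 and -1.70, edgeR adjusted p 0.0248 and 0.0404, against 0.033 and 0.0534 without it), which made 5 of 7. Without the block, its siEA1-1 call was lost on leaving out 4 of the libraries in turn (0.0903 to 0.186). Its counts were 21 and 20 in siNeg1 and 3 to 8 after knockdown, and it too passed through siNeg1 alone. The 5 receptors lower with the block include GPR3 and MC1R, so their number is not read against the share of all genes either. ADORA2B had CPM of 22.3 and 22.4 in siNeg1 and 1.25 to 2.47 in the knockdown libraries. Of 6 tested alpha subunits of G proteins, GNAS, which encodes the stimulatory subunit, fell (-0.37 and -0.30) and GNAO1, an inhibitory type subunit, rose (3.01 and 2.67), from 23.2 and 26.2 CPM in siNeg1 to 153 to 219 CPM.

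Of the 3 heat-stable inhibitors that bind free PKA catalytic subunits, PKIB fell (-1.55 and -1.27), PKIG rose (0.92 and 0.69) and PKIA passed with neither. Among 7 tested effectors of cAMP other than PKA, 2 fell and 1 rose with each siRNA, namely the exchange factor RAPGEF3 (-2.43 and -2.02), the cAMP-binding membrane protein BVES (-0.50 and -0.62) and the channel HCN2 (1.83 and 1.79). The replicates of HCN2 lay far apart, with CPM of 18.1 and 6.69 in siNeg1, 52.6 and 33.8 with siEA1-1, and 62.3 and 23.2 with siEA1-2. RAPGEF3 had 19 and 18 counts in siNeg1 and 2 to 6 after knockdown, and like GPR3 it passed the filter through siNeg1 alone. Leaving RAPGEF3 out, BVES alone of these effectors fell with each siRNA. Among 11 anchors with other names, 3 fell and 3 rose, the largest being the muscle anchor CMYA5 (-1.65 and -1.92), the microtubule protein MAP2 (-1.52 and -1.09), neurobeachin NBEA (0.97 and 0.83) and the small GTPase RAB32 (0.54 and 1.17). RAB32 was lower with siEA1-1 than with siEA1-2 (-0.63, edgeR adjusted p 0.0334), as was the anchor PDE4DIP (-0.78, 0.017), which was called against siNeg1 with siEA1-2 only (0.60, against -0.18 with siEA1-1). The difference of RAB32 was lost on leaving out 5 of the 6 libraries in turn (adjusted p 0.0531 to 0.332) and that of PDE4DIP on leaving out 2 (0.0522 to 0.255). Of 6 genes for cGMP synthesis and cGMP-dependent kinases, 1 was called with each siRNA, the kinase PRKG2, which rose (1.15 and 1.56). With the replicate block the kinase PRKG1 was higher with each siRNA too (1.19 and 0.90, edgeR adjusted p 0.00964 and 0.0477, against 0.0257 and 0.0898 without it), which made 2 of 6. The block also called, with siEA1-1 alone, GUCY1A1 (which passed the filter only because of its siNeg1 level), GUCY1A2 and POPDC3 lower and GNAI1 and GNAI2 higher, at adjusted p of 0.0234 to 0.042, and between the siRNAs PRKG2, HCN3, EZR and GNAO1, at 0.0292 to 0.0497. Leaving out 1 library ended at least 1 call against siNeg1 of GPR3, MC1R, GNAS, PKIG, RAPGEF3, BVES, HCN2, CMYA5, EZR, RAB32 and PDE4DIP, with the lowest adjusted p at 0.0525 and the highest at 0.31. The siEA1-2 calls of GPR3 and RAPGEF3 were each lost on leaving out any of the 6 libraries.

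Because ATF1 binds the cAMP response element, the promoters of the members were searched for its letters in the RefSeq table of windows from 250 bases before to 50 after each annotated start (GRCh38.p14), in which 32 of 38 members had 87 windows (not matched were ADCY6, ADCY8, ADCY9, AKAP3, PDE3B and PDE7A). On both strands, TGACGTCA was found in 4 of the 87 windows of members (4.6%) and in 1.84% of all 34943 windows. Of these 4, 2 are windows of PRKAR1A that hold the same site, so the share rests on 3 genes and is not read as an excess. The looser TGANNTCA, which includes it, was found in 11.5% of both, TGAGTCA, the AP-1 site, in 3.45% against 4.96%, and CGTCA, which is part of TGACGTCA, in 28.7% against 24.5%. By gene, TGACGTCA was in windows of PRKAR1A and PDE7B, which are 2 of the 10 matched members that fell with each siRNA, in none of the 6 that rose, and in PDE4A. The share by gene was not counted over all genes, so nothing is read from these numbers. The windows of 1 gene overlap in part and share sequence, and a match shows only that these letters are there. The sites are shown with 40 bases on each side, 5′ to 3′ on the strand of the gene and with the match in capitals, to let the members that hold the element be compared; AKAP12, which fell, is included for its TGANNTCA match, which is not TGACGTCA. Such matches were also in windows of AKAP6, which rose with each siRNA, and of PDE4B and ADCY7. They were chosen after the search.
PRKAR1A, chr17:68512341-68512428, plus strand: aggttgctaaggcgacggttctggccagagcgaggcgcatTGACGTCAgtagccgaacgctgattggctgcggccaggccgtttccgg
PDE7B, chr6:135851506-135851593, plus strand: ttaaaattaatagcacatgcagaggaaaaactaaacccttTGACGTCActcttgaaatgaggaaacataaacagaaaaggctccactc
PDE4A, chr19:10416730-10416817, plus strand: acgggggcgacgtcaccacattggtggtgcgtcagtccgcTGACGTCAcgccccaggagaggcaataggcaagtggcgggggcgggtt
AKAP12, chr6:151239737-151239824, plus strand: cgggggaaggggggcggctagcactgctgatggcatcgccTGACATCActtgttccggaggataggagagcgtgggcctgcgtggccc

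Counted from the annotated start as base 1, with no base 0, the first base of the site lies at -49 from 1 start of PRKAR1A and at 3 from another, at -155 in PDE7B, at -3 in PDE4A and at -190 from 1 start of AKAP12. Whole windows follow for the members with the largest averaged change in each direction, PDE1C and PDE8B among those that fell and PDE11A and PDE6D among those that rose. For PDE1C and PDE8B none of the 6 and 4 windows held any of the motifs, and the window of the outermost start is printed. Both windows lie upstream of the genes as GENCODE bounds them. That of PDE1C begins at 32428175, close to the gene bound at 32428131. That of PDE8B ends at 77086764, far before the gene bound at 77210449. Of 4 windows of PDE11A, the one printed was chosen because it alone held a match, TGAGTCA at base 34. It lies within the gene, whose bounds are 177623244 and 178108339, and far from its 5′ end at 178108339. The single window of PDE6D held TGACG, the reverse complement of CGTCA, at -125.
PDE1C, chr7:32428175-32428474, minus strand: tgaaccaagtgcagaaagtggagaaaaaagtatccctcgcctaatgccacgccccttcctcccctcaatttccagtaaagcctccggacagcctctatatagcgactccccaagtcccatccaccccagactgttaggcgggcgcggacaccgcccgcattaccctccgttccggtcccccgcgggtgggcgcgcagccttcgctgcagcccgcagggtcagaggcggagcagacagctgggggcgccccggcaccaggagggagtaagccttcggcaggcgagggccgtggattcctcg
PDE8B, chr5:77086465-77086764, plus strand: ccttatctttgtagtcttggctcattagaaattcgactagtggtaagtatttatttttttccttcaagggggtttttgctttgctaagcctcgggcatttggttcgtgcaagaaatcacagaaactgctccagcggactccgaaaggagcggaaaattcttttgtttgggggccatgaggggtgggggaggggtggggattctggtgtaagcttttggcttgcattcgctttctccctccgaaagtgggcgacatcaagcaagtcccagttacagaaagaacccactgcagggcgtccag
PDE11A, chr2:177922788-177923087, minus strand: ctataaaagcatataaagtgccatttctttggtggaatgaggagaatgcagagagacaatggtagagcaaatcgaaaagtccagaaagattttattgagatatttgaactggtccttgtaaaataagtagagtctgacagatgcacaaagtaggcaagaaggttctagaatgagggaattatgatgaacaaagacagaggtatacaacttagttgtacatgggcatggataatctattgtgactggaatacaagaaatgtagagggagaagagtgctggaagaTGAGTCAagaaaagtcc
PDE6D, chr2:231781233-231781532, minus strand: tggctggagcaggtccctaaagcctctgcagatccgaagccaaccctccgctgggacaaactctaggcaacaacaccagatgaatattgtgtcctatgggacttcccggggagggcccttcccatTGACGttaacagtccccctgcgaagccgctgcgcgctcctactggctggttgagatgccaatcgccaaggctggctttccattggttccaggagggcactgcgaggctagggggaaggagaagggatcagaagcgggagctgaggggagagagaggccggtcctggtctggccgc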

How the data were processed

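The 6 libraries were prepared with a strand-marking poly(A) kit. The authors aligned reads to hg38 with BWA-MEM and counted them per gene with featureCounts 1.6.3, and deposited raw counts without normalization; the annotation, the use of strand and any filter are not given in the sources used here, so reads of genes overlapping on opposite strands remain uncertain. Groups came from the sample labels. Members and lists were chosen with earlier results of these data known. From the counts, edgeR 4.0.16 (R 4.3.3) was run with filterByExpr (minimum count 10, total 15; 14571 genes kept), TMM and the quasi-likelihood test over 3 conditions, with Benjamini-Hochberg adjustment over all genes tested and a threshold of 0.05. CPM are TMM-normalized; levels per kilobase used canonical transcripts of GENCODE 44. Libraries sharing a replicate number varied together only weakly (correlations 0.13, 0.199 and 0.144). The main fit did not pair them. Pairing by label number was used only in an alternative fit, the replicate block. Blocked values are given where they change a call of a member or of a listed pathway gene. Replicates correlated at 0.977 to 0.983 and the common biological coefficient of variation was 0.109. Named were all members, in full those called with each EA1 siRNA and the highest of each family, and at most 4 genes of each other list called with each siRNA, of which 1 is not reported here. Alternatives were no filter, a minimum of 10 counts per library, size factors by RLE, DESeq2 1.42.0, only the libraries compared, the block and each library left out. Promoter windows are from RefSeq (GRCh38.p14).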

Additional observations from a re-analysis of the deposited data

How the results depend on the processing

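Of the 18 members called with each EA1 siRNA, 11 kept both calls under every alternative run, ADCY9, AKAP12, AKAP13, PDE10A, PDE1C, PDE5A, PDE6D, PDE7A, PDE7B, PDE8B and PRKAR1A, and 7 lost a call under at least 1; no called member changed sign. DESeq2 called 4 members higher with siEA1-1, 4 with siEA1-2 and 2 with each, against 8, 8 and 7. Among all genes it called 2160, 2084 and 1649 higher, against 2898, 2702 and 2157 in edgeR. Leaving out 1 library at a time, members called higher numbered 3 to 8 with siEA1-1, 3 to 8 with siEA1-2 and 2 to 5 (2 without siNeg1 replicate 1) with each, and members called lower between the siRNAs 0 to 1; the left-out condition's lone library was then assumed to vary like the others. The replicate block called 1 member lower between the siRNAs, ADCY1, and beside the calls of PDE4D, PDE4A, ADCY1 and ADCY2 given above changed no other member call. Among all genes, siEA1-1 against siEA1-2 gave 210 lower and 116 higher, but 530 and 323 with the block, 330 lower with DESeq2, 105 and 71 with only those libraries, and 20 to 471 lower and 13 to 317 higher leaving out 1 library, the fewest without siEA1-1 replicate 2 and the most without siEA1-2 replicate 2. The regulatory to catalytic ratio averaged 20.1 in siNeg1 and 7.2 after knockdown, and 15.7 and 5.66 with the length of all annotated exons, an alternative chosen after seeing the data. The cause of these shifts was not tested. Low counts limit PDE11A, AKAP3, AKAP5, PRKAR1B and PRKAR2B, and 9 members, uncalled in those contrasts, changed sign against siNeg1 under an alternative.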
